A study of Mus musculus with 8 samples.

Results

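Dyrk1a, the calcipressins and the NFAT factors were described here across 8 RNAseq libraries of mouse embryonic fibroblasts (MEFs), 4 from wild-type (WT) and 4 from Dp1Tyb embryos. The group consisted of 10 genes chosen by symbol, Dyrk1a, Dyrk1b, Rcan1, Rcan2, Rcan3, Ppp3ca, Ppp3cb, Nfatc1, Nfatc3 and Nfatc4, out of 19493 endogenous genes with counts, and all 10 passed the filter on low counts that left 16470 genes for testing. Dp1Tyb is the duplication Dp(16Lipi-Zbtb21)1TybEmcf. The labels name C57BL/6J.129P2 as the strain background of both genotypes, and the methods state that the mice had been backcrossed to C57BL/6JNimr. It gives 3 copies of the stretch of chromosome 16 that is orthologous to human chromosome 21, from Lipi to Zbtb21, where WT cells have 2. That stretch was taken as chr16:75540514-97962622 (GRCm38), and 112 of the tested genes lie in it. Dyrk1a and Rcan1 are among them, and the other 8 members lie on other chromosomes. MEFs are connective tissue cells grown from the body of E14.5 embryos without head and viscera, here collected after passaging. Because the duplication covers the whole stretch, an effect of 1 duplicated gene and that of its neighbours cannot be told apart.

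Calcineurin is a phosphatase that is switched on by calcium and calmodulin, and Ppp3ca and Ppp3cb encode alternative forms of its catalytic subunit. It removes phosphates from the NFAT transcription factors, which then enter the nucleus. DYRK1A, a kinase, phosphorylates NFAT proteins and so favours their return to the cytoplasm, and the calcipressins (RCAN1, RCAN2 and RCAN3) bind calcineurin and restrain it. Rcan1 is also a known target of NFAT, through an internal promoter that lies within the gene.

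The sequences before 2 annotated Rcan1 starts are shown because Rcan1 is at once a regulator and a target in this pathway. They are the 250 bases before each start on the minus strand, taken from RefSeq (GRCm38.p6) and written 5′ to 3′, and capitals mark the core letters of the NFAT site, GGAAA, or their reverse complement TTTCC. The first line is the internal start (chr16:92400079-92400328) and the second the start farther upstream (chr16:92466170-92466419).
Rcan1, internal start: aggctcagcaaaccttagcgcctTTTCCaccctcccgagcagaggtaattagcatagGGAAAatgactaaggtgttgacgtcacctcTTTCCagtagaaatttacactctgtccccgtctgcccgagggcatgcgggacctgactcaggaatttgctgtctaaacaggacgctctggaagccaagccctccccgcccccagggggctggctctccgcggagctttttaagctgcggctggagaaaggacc
Rcan1, upstream start: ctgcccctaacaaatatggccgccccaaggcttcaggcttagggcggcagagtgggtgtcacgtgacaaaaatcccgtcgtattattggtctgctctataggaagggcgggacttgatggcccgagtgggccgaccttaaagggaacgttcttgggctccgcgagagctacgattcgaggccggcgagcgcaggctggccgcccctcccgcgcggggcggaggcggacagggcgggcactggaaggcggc
The internal window held 3 matches, at -227, -193 and -163 counted back from the annotated start, and the upstream window held 0. The single windows of Ppp3cb and Nfatc4 held 3 matches as well. Of 32851 such windows of 27025 genes, 55.6% held at least 1 match and 6.39% held at least 3. In the annotation used for positions, Rcan1 extends to 92470867, beyond the upstream window. The gene counts pool reads from all starts, and the use of each start was not analysed here.

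Total counts per library ran from 17698900 to 26471758, of which 0.882 to 1.65% fell on ERCC spike-ins, synthetic transcripts that the cells received in equal amount before extraction. Raw counts of the members ran from 64 to 6249. Values are given in 2 scalings of the same counts. Relative normalisation sets the libraries equal over endogenous genes, and spike-in normalisation sets them equal over the spike-ins, so that it keeps differences in the RNA recovered per cell. All 10 fibroblast markers were detected, with a summed level of 22272 to 31831 CPM in WT and 26079 to 31666 CPM in Dp1Tyb. All 6 macrophage markers had lower means in Dp1Tyb (5 at an unadjusted p below 0.05, 0 after adjustment), with sums of 258.9 to 355.5 CPM in WT and 143.8 to 290.1 CPM in Dp1Tyb. Fewer macrophages and less RNA of these genes per cell cannot be told apart in such bulk libraries, and their part in the results below was not tested. Summed markers of endothelial, skeletal muscle, epithelial, cartilage and neural cells were at most 143.6 CPM in any library and overlapped between the groups, and Tie1, Myod1, Myf5 and Ckm had no row of counts. WT replicate 2 and Dp1Tyb replicate 1 had high Xist counts (36188 and 38867) and almost no counts of Y-linked genes, the pattern of female cells. The other 6 libraries had the male pattern, and sex was read from these counts only. The results of the members whose values turn on this pair are therefore also given without it. The methods derive the MEFs from littermate embryos, but the labels do not tie each library to its own embryo, and p-values then measure only the spread between these libraries.

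No member passed an adjusted p of 0.05 in either scaling by edgeR's quasi-likelihood test, and DESeq2 also called 0 of 10. The adjusted p was 0.999 for every member with relative and 1.00 with spike-in normalisation. Over all 16470 genes, 0.0182% (3 genes) were called with relative and 0.0121% (2 genes) with spike-in normalisation, so few genes of any kind passed (54 and 2 with DESeq2). At an unadjusted p below 0.05 stood 2 of the 10 members with relative normalisation, Dyrk1a and Rcan1, against 4.27% of all genes and 53.6% of the 112 duplicated genes. With spike-in normalisation it was 1 of 10, Rcan1, against 1.17% of all genes and 43.8% of the duplicated ones. On that scale the edgeR SEs of the members, 0.32 to 0.36, lay near the smallest over all genes, 0.315. They thus hold little of each gene's own spread, and the exact permutation p of Rcan1 was 0.114. The groups overlapped for all 10 members, whereas they did not overlap for 3.16% of all genes and 42% of the duplicated genes with relative and for 0.425% and 14.3% with spike-in normalisation.

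**Figure D1:**
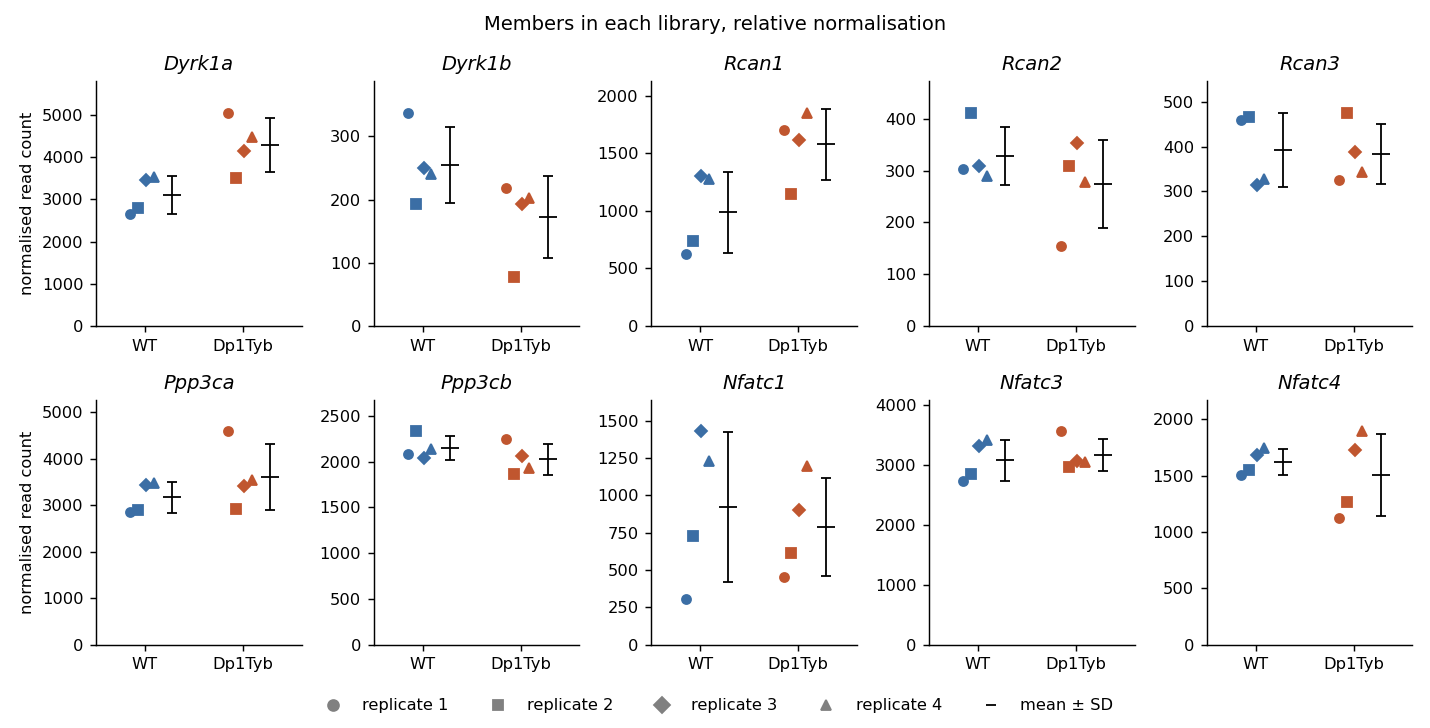
Read counts of the 10 members after relative normalisation, 1 panel per gene, with WT and Dp1Tyb on the horizontal axis and the normalised read count on the vertical axis from 0. Symbols are the 4 replicates of a group and the bar is the mean ± SD; 3 of the 4 Dp1Tyb libraries lie above all WT libraries for Dyrk1a and Rcan1, and in no panel are the groups fully apart.

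Dyrk1a (ENSMUSG00000022897, chr16:94570010-94695517, plus strand), the duplicated kinase, had a mean level 1.38-fold higher in Dp1Tyb than in WT. Its relative normalised read counts in replicates 1 to 4 were, for WT, 2644, 2807, 3453 and 3542 and, for Dp1Tyb, 5049, 3502, 4142 and 4471. All genes below are given in this order. Dp1Tyb replicate 2 fell among the WT values and the other 3 lay above all of them, an arrangement found for 6.45% of all genes and 55.4% of the duplicated genes (at least 3 Dp1Tyb libraries above all WT). WT had a mean of 3112 ± 452 and Dp1Tyb a mean of 4291 ± 646 (SD, n = 4). The edgeR log2 fold change was 0.46 ± 0.14 (SE, 95% interval 0.15 to 0.78), and a two-sided exact permutation test over the libraries gave p = 0.0571, where the smallest possible value is 0.0286. With spike-in normalisation the counts were 3137, 2477, 2463 and 4142 in WT and 6081, 2408, 4360 and 5875 in Dp1Tyb. On this scale Dp1Tyb replicate 2 was the lowest of all 8 libraries. There the fold change was 0.62 ± 0.32 on the log2 scale (SE, 95% interval -0.0057 to 1.24, exact permutation p = 0.171). Without WT replicate 2 and Dp1Tyb replicate 1, a choice made after seeing the data, it was 0.33 with relative normalisation (edgeR adjusted p = 0.371) and 0.38 with spike-in normalisation (edgeR adjusted p = 1.00). The unadjusted edgeR p of Dyrk1a then rose above 0.05 with relative normalisation. In a fit of all libraries with the replicate number as a block, this p was 0.0061 with relative normalisation (adjusted p = 0.331). With spike-in normalisation the block gave 0.022 in place of 0.052, before adjustment.

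Dyrk1b (ENSMUSG00000002409, chr7:28179469-28187294), the closest relative of Dyrk1a and present in 2 copies in both genotypes, had a lower mean in Dp1Tyb. The counts were 337, 193, 249 and 240 in WT and 219, 77.1, 192 and 203 in Dp1Tyb, all with relative normalisation. Dp1Tyb replicate 2 was far below the others with 64 raw counts, and 2 of the 4 Dp1Tyb libraries lay inside the WT range. Its log2 fold change was -0.56 ± 0.30 (SE, exact permutation p = 0.0857) with relative and -0.39 ± 0.36 (exact permutation p = 0.543) with spike-in normalisation. Single libraries set much of it, since it was -0.32 with relative and -0.064 with spike-in normalisation without Dp1Tyb replicate 2, and -0.39 and -0.092 without WT replicate 1. Without the pair that differed in Xist it was -0.80 (edgeR adjusted p = 0.337) with relative and -0.72 (edgeR adjusted p = 1.00) with spike-in normalisation, and Dyrk1b was then the only member at an unadjusted edgeR p below 0.05 with relative normalisation, against 13.5% of all genes in that fit (0 members with spike-in normalisation, against 1.92%). With the replicate number as a block, its unadjusted edgeR p was 0.0099 with relative (adjusted p = 0.385) and 0.065 with spike-in normalisation. In the relative fit with this block, 1601 of 16470 genes were below 0.05.

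Per kilobase of exon, reads of Dyrk1a made up most of the reads of the DYRK1 pair in every library. Its share of Dyrk1a plus Dyrk1b was 71.9, 82.6, 81.9 and 82.8% in WT and 88.3, 93.7, 87.6 and 87.8% in Dp1Tyb. Every Dp1Tyb library had a higher share than every WT library, with means of 79.8 ± 5.26% and 89.3 ± 2.92% (SD, n = 4) and a difference of 9.52 percentage points (3.94 when raw counts are used without exon length). A share does not depend on how libraries are scaled. Summed over the pair, the level was 22.6 ± 2.47 RPKM in WT and 27.96 ± 4.81 RPKM in Dp1Tyb, with overlapping groups. The Dyrk1a share was the only one of the 4 family shares examined in which the groups did not overlap, and it is given as a description with no test.

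Rcan1 (ENSMUSG00000022951, chr16:92391953-92470867, minus strand) is the duplicated calcipressin, and its mean was 1.601-fold higher in Dp1Tyb. Relative normalised counts were 627, 741, 1300 and 1276 in WT and 1706, 1144, 1611 and 1850 in Dp1Tyb. The WT libraries formed a low pair (replicates 1 and 2) and a high pair (replicates 3 and 4), and Dp1Tyb replicate 2 lay between these pairs while the other 3 Dp1Tyb libraries were above all WT. The means were 986 ± 352 and 1578 ± 306 (SD, n = 4). By edgeR the log2 fold change was 0.68 ± 0.25 (SE, 95% interval 0.12 to 1.24), and the exact permutation test gave p = 0.0857. With spike-in normalisation the counts were 744, 654, 927 and 1492 in WT and 2055, 787, 1696 and 2431 in Dp1Tyb. The same 3 Dp1Tyb libraries were above all WT (as for 3.84% of all genes and 57.1% of the duplicated ones on this scale), with a log2 fold change of 0.87 ± 0.32 (SE, 95% interval 0.24 to 1.495, exact permutation p = 0.114). Without the pair that differed in Xist it was 0.53 (edgeR adjusted p = 0.443) with relative and 0.64 (edgeR adjusted p = 1.00) with spike-in normalisation. Leaving out WT replicate 2 or Dp1Tyb replicate 4 alone also took the unadjusted edgeR p of Rcan1 above 0.05 in both scalings.

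The calcipressins that are not duplicated had similar or lower means in Dp1Tyb. Rcan2 (ENSMUSG00000039601, chr17:43801351-44039516) had relative counts of 302, 411, 309 and 290 in WT and 154, 309, 353 and 279 in Dp1Tyb. Its log2 fold change was -0.27 ± 0.24 (SE, 95% interval -0.80 to 0.27), and 0.064 without the pair that differed in Xist, which held its highest and its lowest library. Without Dp1Tyb replicate 1 alone it was -0.067 with relative and -0.0068 with spike-in normalisation. Rcan3 (ENSMUSG00000059713, chr4:135412308-135433853), which shares 44 exon bases with Mir700 on the same strand, had counts of 460, 466, 315 and 328 in WT and 326, 475, 389 and 343 in Dp1Tyb. In WT the order was the reverse of that of Rcan1, with replicates 1 and 2 high and replicates 3 and 4 low. The log2 fold change of Rcan3 was -0.036 ± 0.18 (SE, 95% interval -0.44 to 0.37) with relative and 0.012 with spike-in normalisation, where the medians over all genes were 0.0061 and 0.11. Rcan1 held 66.2 ± 11.4% of the calcipressin reads per kilobase in WT and 78.3 ± 6.78% in Dp1Tyb (SD, n = 4), and the groups overlapped. The summed level of the 3 calcipressins was 22.6 ± 4.45 RPKM in WT and 31.1 ± 3.98 RPKM in Dp1Tyb, also with overlap.

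**Figure D2:**
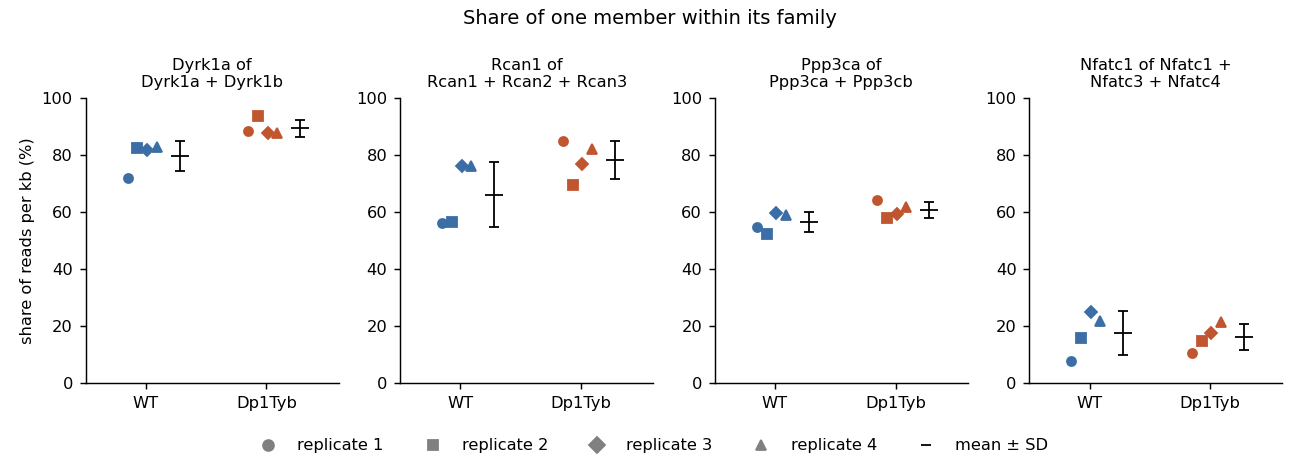
Share of 1 member in the summed reads per kilobase of its family, in percent on an axis from 0 to 100, for WT and Dp1Tyb. Symbols are the replicates and bars the mean ± SD (n = 4); the Dyrk1a share of 71.9 to 82.8% in WT lies below the 87.6 to 93.7% in Dp1Tyb, and the other panels overlap.

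Dyrk1a lay near the middle of the duplicated genes, and Rcan1 higher among them. By fold change with relative normalisation, Rcan1 was number 34 and Dyrk1a number 62 of the 112 tested genes of the duplicated region, whose median log2 fold change was 0.54, against 0.0061 over all genes. With spike-in normalisation, Rcan1 was number 16 and Dyrk1a number 61, with medians of 0.64 for the region and 0.11 for all genes. The ratio of gene copies is 1.5, and neither gene departed from that fold in the test against it. The distance of Dyrk1a from it was -0.12 (log2, edgeR adjusted p = 0.737 over the region) with relative and 0.031 (edgeR adjusted p = 0.992) with spike-in normalisation. For Rcan1 it was 0.094 (edgeR adjusted p = 0.884) and 0.28 (edgeR adjusted p = 0.984). The 95% interval of the fold with relative normalisation ran from 1.11 to 1.72 for Dyrk1a and from 1.09 to 2.36 for Rcan1, so departures from 1.5 within these limits were not detectable with 4 libraries a group. Of the 112 genes, 0 departed from 1.5-fold after adjustment in either scaling, and 9 with relative and 1 with spike-in normalisation did so at an unadjusted p below 0.05.

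**Figure D3:**
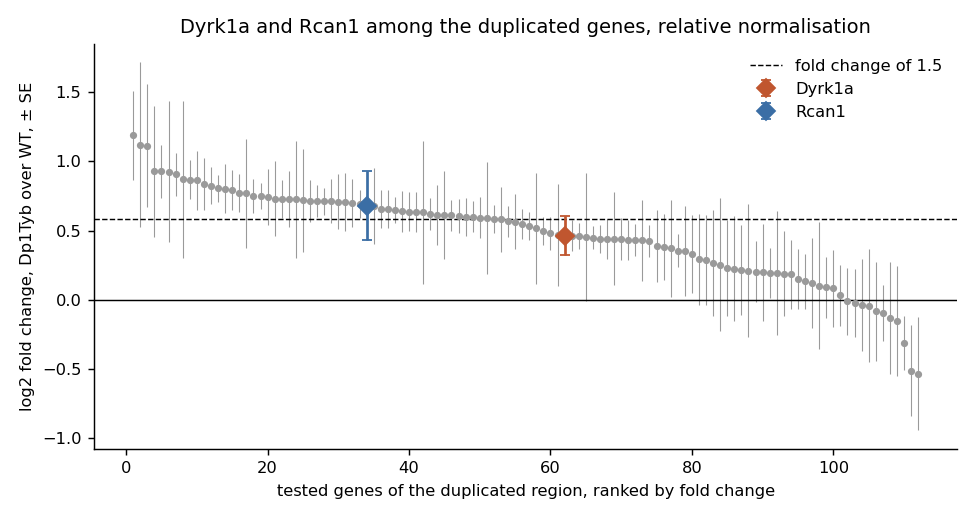
The 112 tested genes of the duplicated region ranked by log2 fold change with relative normalisation (horizontal axis, rank; vertical axis, log2 of Dp1Tyb over WT ± SE). The dashed line is a fold change of 1.5; Rcan1 at rank 34 lies just above it (by 0.094) and Dyrk1a at rank 62 just below it, both within their SE.

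The nearest tested genes on each side of the duplicated members carried the same extra copy. Beside Dyrk1a, the groups did not overlap for Vps26c, a subunit of an endosomal sorting complex (log2 fold change 0.64 ± 0.15), Ttc3, a ubiquitin ligase (0.46 ± 0.095), Pigp, which acts in the making of GPI anchors (0.44 ± 0.15), and Kcnj15, a potassium channel (0.84 ± 0.19, all SE with relative normalisation). They did overlap for Erg, an ETS factor (0.35 ± 0.33), and for Gm15971, a processed pseudogene inside Dyrk1a that shares no exon base with it (0.27 ± 0.38). Dyrk1a thus had a fold close to those of Ttc3 and Pigp. Beside Rcan1 the groups did not overlap only for Smim11, which encodes a small membrane protein (0.73 ± 0.20). They overlapped for Gm16310 (0.63 ± 0.52), the inositol transporter Slc5a3 (0.45 ± 0.47), the transcription factor Runx1 (0.33 ± 0.28), Setd4, a methyltransferase (0.19 ± 0.18), and Gm26626 (0.032 ± 0.22). The errors were widest for Gm16310 and Slc5a3. On this relative scale the groups did not overlap for 42% of the duplicated genes and 3.16% of all genes. With spike-in normalisation, where that share was 14.3% of the duplicated genes, the overlap of these neighbours was not examined. Log2 fold changes were there 0.71 ± 0.32 for Vps26c, 0.56 ± 0.32 for Ttc3, 0.51 ± 0.35 for Pigp and 0.94 ± 0.34 for Kcnj15 (SE).

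Likeness was measured over 11001 genes that averaged 100 counts or more. The 3 that followed Dyrk1a most closely over the 8 libraries were Nrip1 (Pearson r = 0.985), Tnfsf9 (0.974) and Ninj1 (0.972). Those closest to Rcan1 were Nrip1 (0.971), Fgf2 (0.969) and Lpcat4 (0.968). Nrip1, a nuclear receptor cofactor and the nearest by this measure to both, is itself in the duplicated region, and the other 4 genes are not on chromosome 16. Dyrk1a and Rcan1 had r = 0.949 with each other. Ppp3ca (0.862) and Nfatc3 (0.700), which are not duplicated, also followed Dyrk1a. After the mean of each genotype was taken off, r was 0.904 between Dyrk1a and Rcan1, and 0.965 and 0.946 between Nrip1 and each of them. With Dyrk1a it was then 0.943 for Ppp3ca, 0.922 for Nfatc3 and -0.965 for Rcan3. Tnfsf9 (0.987) was then closer to Dyrk1a than Nrip1 was, and Ninj1 (0.955) was not. Fgf2 (0.966) and Lpcat4 (0.954) were then closer to Rcan1 than Nrip1 was. These correlations are over the same 8 libraries and describe them only.

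**Figure D4:**
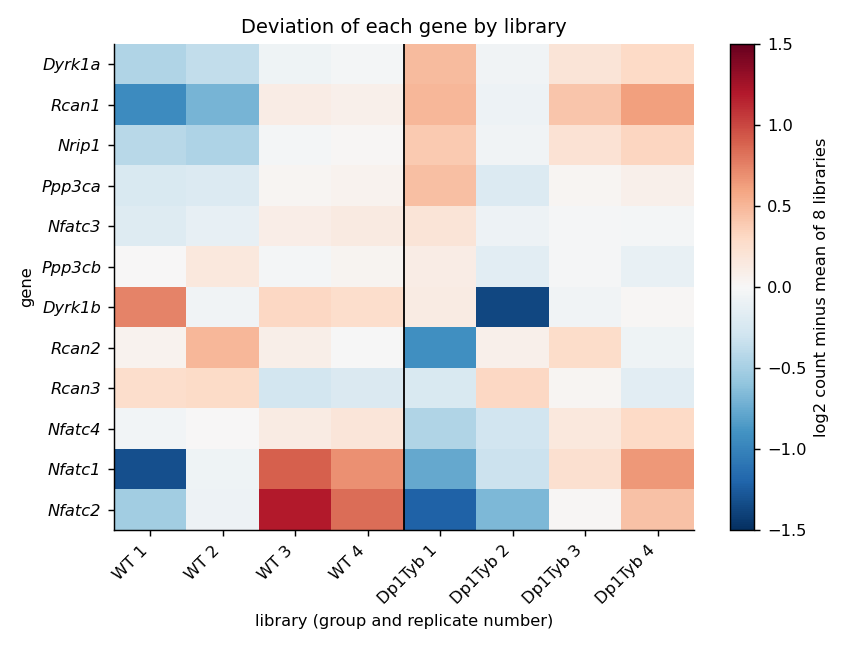
Deviation of each gene from its mean over the 8 libraries, in log2 units (colour scale, blue below and red above the mean), with genes in rows and libraries in columns, WT left of the line. Dyrk1a, Rcan1 and Nrip1 share a pattern, lowest in WT replicates 1 and 2, where Ppp3ca and Nfatc3, which are not duplicated, are lowest as well. Nfatc1 and Nfatc2 share another, highest in WT replicates 3 and 4.

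The catalytic subunits of calcineurin were close between genotypes. Ppp3ca (ENSMUSG00000028161, chr3:136670124-136937727) had relative counts of 2862, 2898, 3429 and 3489 in WT and 4589, 2909, 3409 and 3539 in Dp1Tyb. The high Dp1Tyb replicate 1 set most of the difference, since the other 3 Dp1Tyb libraries lay within or next to the WT range. The log2 fold change was 0.19 ± 0.14 (SE, 95% interval -0.13 to 0.51), and 0.052 without that library (0.014 without the pair that differed in Xist). With spike-in normalisation it was 0.34 ± 0.32, 0.053 without that pair and 0.14 without Dp1Tyb replicate 1. Without Dp1Tyb replicate 2 it was 0.28 with relative and 0.57 with spike-in normalisation. In that spike-in fit Ppp3ca had an unadjusted edgeR p of 0.043 (adjusted p = 0.771), where 539 of 16803 genes were below 0.05. Ppp3cb (ENSMUSG00000021816, chr14:20499364-20546573) had the narrowest range of the 10 members with relative normalisation, its highest library being 1.25 times its lowest (2.11 times with spike-in normalisation), with counts of 2086, 2332, 2038 and 2144 in WT and 2253, 1867, 2059 and 1932 in Dp1Tyb. Its log2 fold change of -0.084 ± 0.095 (SE, 95% interval -0.30 to 0.13) with relative normalisation was 0.035 ± 0.32 with spike-in normalisation. With relative normalisation it ran from -0.14 without Dp1Tyb replicate 1 to -0.032 without WT replicate 2. Ppp3ca made up 56.4 ± 3.52% of the reads per kilobase of the pair in WT and 60.8 ± 2.79% in Dp1Tyb, and the groups overlapped.

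The 3 NFAT factors differed between genotypes by less than 1 SE of their fold changes. Nfatc1 (ENSMUSG00000033016, chr18:80606205-80713071) had relative counts of 306, 729, 1428 and 1227 in WT and 450, 614, 901 and 1197 in Dp1Tyb. Its highest WT library was 4.66 times its lowest, and the Dp1Tyb values fell inside that range. The log2 fold change was -0.22 ± 0.44 (SE, 95% interval -1.20 to 0.76) with relative and 0.0081 with spike-in normalisation, so a change of either sign within these limits was not detectable. Nfatc3 (ENSMUSG00000031902, chr8:106058840-106130537) had counts of 2721, 2847, 3317 and 3407 in WT and 3552, 2952, 3064 and 3050 in Dp1Tyb. It shares 219 exon bases with Esrp2 on the opposite strand, and the strand option of the counting is not given in the sources used here. The log2 fold change was 0.038 ± 0.11 (SE, 95% interval -0.21 to 0.28), one of the narrowest intervals of the group. Nfatc4 (ENSMUSG00000023411, chr14:55823144-55833943) had counts of 1503, 1555, 1681 and 1750 in WT and 1127, 1267, 1728 and 1893 in Dp1Tyb. The Dp1Tyb libraries straddled the WT range, with replicates 1 and 2 below it and replicate 4 above. With relative normalisation its log2 fold change was -0.11 ± 0.16 (SE, 95% interval -0.47 to 0.25) and 0.029 with spike-in normalisation.

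**Figure D5:**
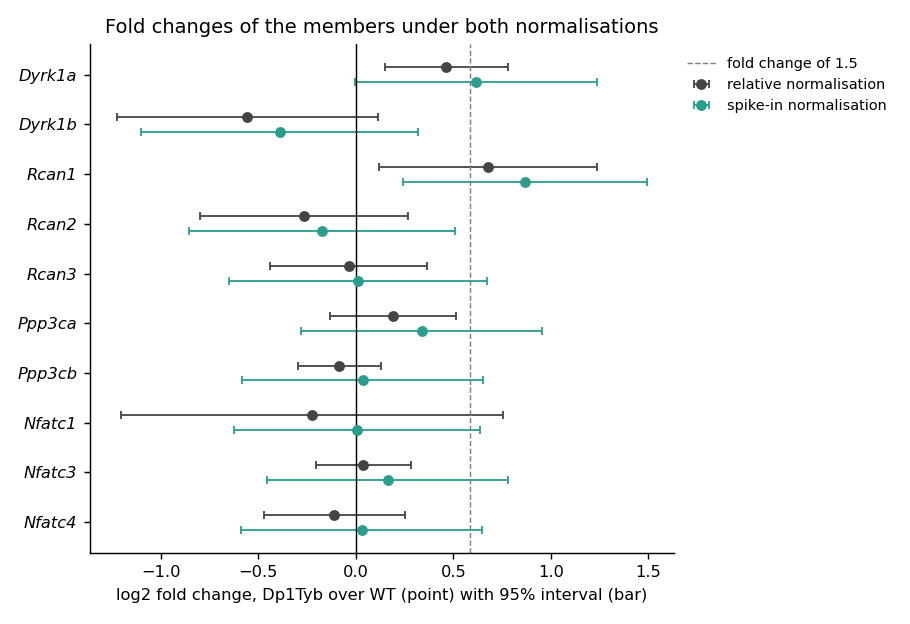
Log2 fold change of Dp1Tyb over WT for the 10 members (points) with 95% intervals (bars), with relative (dark) and spike-in (green) normalisation. The solid line is no change and the dashed line a fold change of 1.5; the interval lies above 0 for Dyrk1a with relative normalisation and for Rcan1 in both, and spans 0 for every other member.

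Together the 8 members that are not duplicated had a median log2 fold change of -0.097 with relative normalisation (2 higher, 6 lower) and 0.021 with spike-in normalisation (6 higher, 2 lower), beside medians of 0.0061 and 0.11 over all genes. For the calcineurin and NFAT genes, Rcan2 and Rcan3, the exact permutation test gave p-values from 0.257 to 0.971 with relative and from 0.486 to 1.00 with spike-in normalisation. By level per exon length in WT, with relative normalisation, the order was Dyrk1a (18.0 ± 2.62 RPKM), Rcan1 (15.3 ± 5.46), Ppp3ca (15.2 ± 1.61), Nfatc4 (13.4 ± 0.935), Nfatc3 (12.5 ± 1.38), Ppp3cb (11.7 ± 0.700), Nfatc1 (5.91 ± 3.24), Dyrk1b (4.53 ± 1.07), Rcan3 (3.67 ± 0.770) and Rcan2 (3.59 ± 0.613, SD, n = 4). Neighbours in this order had overlapping WT ranges, except Ppp3cb and Nfatc1, where Ppp3cb was higher in all 8 libraries. In Dp1Tyb the levels of Dyrk1a and Rcan1 were 24.9 ± 3.75 and 24.5 ± 4.74 RPKM.

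Of 29 other genes of the calcineurin and NFAT pathway, 28 were tested and 0 were called, also with DESeq2. An unadjusted edgeR p below 0.05 was found for 0 of them, against 4.27% of all genes with relative and 1.17% with spike-in normalisation. Without the pair that differed in Xist it was 3 with relative and 0 with spike-in normalisation. Over all genes in those fits the shares were 13.5% and 1.92%. With relative normalisation 20 were higher and 8 lower in Dp1Tyb, with log2 fold changes from -0.74 to 0.21 and a median of 0.062, where 51.2% of all genes were higher. With spike-in normalisation 26 of 28 were higher against 70.4% of all genes. The largest difference was that of Nfatc2, another NFAT factor, with relative counts of 161, 218, 526 and 411 in WT and 99.4, 145, 232 and 313 in Dp1Tyb. Its log2 fold change was -0.74 ± 0.43 (SE, exact permutation p = 0.229) with relative and -0.51 ± 0.36 (exact permutation p = 0.371) with spike-in normalisation, and its relative values followed those of Nfatc1 (r = 0.867) and Nfatc4 (r = 0.836) over the 8 libraries. Itpr2, a calcium release channel of the endoplasmic reticulum, had the smallest unadjusted edgeR p of the list with relative normalisation (log2 fold change 0.21 ± 0.11, exact permutation p = 0.0857, and p = 0.371 with spike-in normalisation). Ppia, cyclophilin A, which binds calcineurin in the presence of cyclosporin, had 0.18 ± 0.13 (exact permutation p = 0.200, and p = 0.229 with spike-in normalisation), and reads that also align to its pseudogenes had been discarded. Ppp3r1, the regulatory subunit of calcineurin, had 0.064 ± 0.095.

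Relatives of Dyrk1a, the DREAM complex that DYRK1A helps to assemble, and its cell cycle substrates formed a list of 22 genes, of which 21 were tested. With relative normalisation 6 were higher and 15 lower in Dp1Tyb, against 51.2% higher of all genes, and with spike-in normalisation 15 were higher and 6 lower, against 70.4% higher of all genes. The median log2 fold change of the list was -0.045 with relative and 0.049 with spike-in normalisation, below the medians of 0.0061 and 0.11 over all genes. None was called by edgeR or DESeq2. An unadjusted edgeR p below 0.05 was found for 2 with relative and 0 with spike-in normalisation, against 4.27% and 1.17% of all genes. With relative normalisation this count was 6 without the pair that differed in Xist (13.5% of all genes in that fit). It was 4 with upper-quartile factors (717 of 16470 genes) and 0 without Dp1Tyb replicate 2 (529 of 16803 genes). Lin37, a DREAM subunit, had counts of 147, 128, 128 and 132 in WT and 167, 194, 161 and 157 in Dp1Tyb. The groups did not overlap on this relative scale, as for 3.16% of all genes. The log2 fold change of Lin37 was 0.35 ± 0.14 (SE, exact permutation p = 0.0286, the smallest possible), against 0.42 ± 0.38 (exact permutation p = 0.143) with spike-in normalisation. Lin37 was picked by its edgeR p from these same libraries, so the permutation p adds no separate evidence. Ccnd1, cyclin D1, whose protein DYRK1A marks for degradation, had counts of 6382, 4517, 4723 and 4060 in WT and 4538, 3297, 3639 and 3263 in Dp1Tyb. Only Dp1Tyb replicate 1 reached the WT range, and the log2 fold change was -0.42 ± 0.16 (SE, exact permutation p = 0.0857) with relative and -0.31 ± 0.32 (exact permutation p = 0.457) with spike-in normalisation. Rbl2, the p130 pocket protein of DREAM, had a log2 fold change of -0.19 ± 0.094 (exact permutation p = 0.0571) with relative and -0.076 ± 0.32 (exact permutation p = 0.8286) with spike-in normalisation. Cell cycle inhibitor Cdkn1b had -0.26 ± 0.13 (exact permutation p = 0.0857) and -0.16 ± 0.32 (exact permutation p = 0.514).

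Known NFAT target genes come mostly from lymphocytes and osteoclasts, and only 9 of 17 had a row in the count table. Of the 8 tested, 4 were higher and 4 lower with relative normalisation, against 51.2% higher of all genes. With spike-in normalisation 5 were higher and 3 lower, against 70.4% higher of all genes, and 0 were called by edgeR or DESeq2. At an unadjusted edgeR p below 0.05 stood 1 gene with relative (Ctsk) and 1 with spike-in normalisation (Tnf), against 4.27% and 1.17% of all genes. With relative normalisation this count was 0 without WT replicate 4, Dp1Tyb replicate 1 or Dp1Tyb replicate 2 alone, and 2 with DESeq2. Ctsk, the protease cathepsin K, had counts of 4164, 2914, 4299 and 3280 in WT and 4802, 4787, 4549 and 4389 in Dp1Tyb. All 4 Dp1Tyb libraries were above WT on this relative scale, where the groups did not overlap for 3.16% of all genes. The log2 fold change of Ctsk was 0.34 ± 0.13 (SE, exact permutation p = 0.0286, the smallest possible) with relative and 0.45 ± 0.32 (exact permutation p = 0.143) with spike-in normalisation. Ctsk too was picked by its edgeR p from these same libraries. Tnf, an inflammatory cytokine also made by macrophages, had low counts of 15.9, 117, 157 and 139 in WT and 7.27, 41.0, 61.7 and 43.3 in Dp1Tyb. WT replicate 1 was far below the other WT libraries, and the means were 107 ± 63.1 and 38.3 ± 22.7 (SD, n = 4, exact permutation p = 0.257). With spike-in normalisation the log2 fold change of Tnf was -1.34 ± 0.44 (exact permutation p = 0.200). The macrophage markers had lower means in Dp1Tyb as well (Ptprc, which encodes CD45, by a log2 fold change of -0.87), and their part in the Tnf values was not tested. Acp5, a phosphatase of osteoclasts, was at 33 raw counts or fewer, with a log2 fold change of 0.69 ± 0.46.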

How the data were processed

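Poly(A) RNA of 4 WT and 4 Dp1Tyb MEF cultures was sequenced after the authors had added ERCC spike-ins to the cells in Trizol. According to the methods and processing notes, the authors removed adapters with Trim Galore, aligned stranded paired-end reads to GRCm38 and the spike-in sequences with TopHat2 2.0.12, discarded reads with several alignments and counted reads per gene with HTSeq. The annotation release and strand option are not given in the sources used here. The deposited table holds raw counts for 19493 genes and 63 spike-ins, and its smallest sum over the libraries is 15. A deposited table of normalised counts and the authors' DESeq2 comparison (means, log2 fold changes, standard errors and p-values) were not used.

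Positions came from GENCODE M21 (GRCm38), in which 175 IDs had no match. Counts were scaled by TMM over endogenous genes (relative) or by median-of-ratios factors of the spike-ins, filtered with filterByExpr, and compared by edgeR 4.0.16 (R 4.3.3, two-sided quasi-likelihood test), with Benjamini-Hochberg adjustment over all 16470 tested genes and a threshold of 0.05. Because a group holds 4 libraries, two-sided exact permutation tests of log2 normalised counts were run over the 70 assignments of libraries to groups. They gave the p-values named as exact permutation p. All other p-values of single genes, and counts below 0.05, come from edgeR, or from DESeq2 where it is named or among the alternatives. A log(1.5) offset gave the test against 1.5-fold. DESeq2 1.42.0, other factors, other filters, a replicate block and leaving out each library were the alternatives. Correlations used log2 normalised counts with a pseudocount of 0.5. Scripts were tested on simulated data. With spike-in scaling the SEs of the 10 members lay between 0.32 and 0.36, near the smallest over all genes (0.315). That of Nfatc1 was 0.32, against 0.44 with relative scaling. These SEs and the edgeR p-values from them thus hold little of each gene's own spread. Named besides the members were, of each list, genes called and up to 3 with the smallest p, the nearest 3 tested genes on each side of Dyrk1a and Rcan1, and the 3 most correlated with each. Ppp3r1, Cdkn1b and Ptprc fall outside this rule and were chosen after their values were seen. The members and lists were chosen with earlier results of these data known.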

Additional observations from a re-analysis of the deposited data

Results flagged for a closer look

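The relative normalised read count of Rcan2 in WT replicate 2, 411, stood apart from the other WT libraries at 290 to 309. The gap to its nearest neighbour took up 0.845 of the range of the group, above Dixon's 95% critical value for 4 libraries. Of 20 groups of 4 libraries examined, this was the only one above that value, and chance gives about 1 in 20. Without that library the log2 fold change of Rcan2 was -0.13 in place of -0.27, and without Dp1Tyb replicate 1 it was -0.067.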

How the results depend on the processing

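No member and no gene of the 3 lists passed an adjusted p of 0.05 under any of the 15 alternatives of either scaling. Dyrk1a and Rcan1 kept a higher mean in Dp1Tyb, Dyrk1b a lower one and Ppp3ca a higher one under all of them, and the adjusted p ran from 0.331 to 1.00 for Dyrk1a and from 0.270 to 1.00 for Rcan1 with relative normalisation. The number of genes called over all genes was less stable, and the cause was not tested. With relative normalisation it was 3, but 54 with DESeq2, 0 with at least 10 counts in every library (622 at an unadjusted p below 0.05), 18 without WT replicate 2 and Dp1Tyb replicate 1 (an alternative chosen after seeing the data), and 1 whichever single library was left out. With spike-in normalisation it was 2, but 0 with at least 10 counts in every library (156 at an unadjusted p below 0.05), 5 without that pair, and 2 to 8 without single libraries. Duplicated genes that departed from 1.5-fold numbered 0, and 0 to 1 without single libraries in both scalings. The Dyrk1a share differed by 3.94 percentage points in place of 9.52 when raw counts were used without exon length, since exons of Dyrk1a are longer than those of Dyrk1b.

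Small log2 fold changes changed sign. With relative normalisation, without single libraries, Rcan3 ran from -0.16 to 0.071, Nfatc1 from -0.51 to 0.074, Nfatc3 from -0.024 to 0.095 and Nfatc4 from -0.24 to 0.0063, and Nfatc3 was -0.0053 with upper-quartile factors. With spike-in normalisation, Rcan3 ran from -0.18 to 0.22, Ppp3cb from -0.11 to 0.23, Nfatc1 from -0.44 to 0.37 and Nfatc4 from -0.24 to 0.25. Without the pair that differed in Xist, relative values were 0.064 for Rcan2, 0.13 for Rcan3 and -0.056 for Nfatc3, and spike-in values were 0.054 for Rcan2, -0.097 for Ppp3cb and -0.041 for Nfatc3. Nfatc1 and Nfatc4 were then -0.12 and -0.011 with relative and 0.070 and 0.049 with spike-in normalisation. In these fits 1 of the 8 NFAT target genes was at an unadjusted p below 0.05 in either scaling. Over all genes the shares were 13.5% with relative and 1.92% with spike-in normalisation.

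Replicate numbers occur in both groups, but same-numbered libraries did not all deviate together (r = 0.322, 0.622, -0.0776 and 0.447), so the numbers were not taken to pair them. In 3 of the 4 pairs each library correlated best with its own number. With relative normalisation, Dyrk1a and Rcan1 were higher and Dyrk1b lower in Dp1Tyb than in WT at every replicate number. With spike-in normalisation this held for Rcan1 only. Dyrk1a at replicate 2 was 2408 in Dp1Tyb and 2477 in WT, and Dyrk1b at replicate 3 was 202 and 178. The share of all genes with the same direction at every number was not counted. A fit with the replicate number as a block called 7 genes with relative and 9 with spike-in normalisation and 1 departure from 1.5-fold with relative normalisation, and gave spike-in log2 fold changes of -0.0024 for Nfatc1 and -0.041 for Nfatc4. The block changed no adjusted call of a member. At an unadjusted p below 0.05 it gave 3 members with relative (Dyrk1a, Dyrk1b and Rcan1) and 2 with spike-in normalisation (Dyrk1a and Rcan1), in place of 2 and 1, among 1601 and 499 of all genes, in place of 703 and 192. The effect of depth on genes with few counts, such as Acp5 and, among the members, Dyrk1b, was not tested.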
